A study of Mus musculus with 24 samples.

Results

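Liver transcriptomes of 6 ablated female mice were compared by housing temperature, 3 kept at 22 °C against 3 kept at 30 °C, out of 24 libraries in the series. The members were taken from the sample labels alone, by sex, ablation and housing temperature, and no measured value entered the choice. In ablated mice, a virus carrying a Cre-dependent caspase-3 had been placed in the arcuate nucleus of adults that express Cre from a bacterial artificial chromosome of the angiotensin receptor gene Agtr1a, which targets AgRP neurons that carry this receptor. The mice stayed at their temperature from surgery on, with diet and water freely available, and the liver was frozen 2 weeks later for sequencing of polyadenylated RNA.

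The 3 ablated females at 22 °C were all Ai39 x BAC-AT1A-Cre, Cre+ and Halo+/-. Ablated females 1 and 2 at 30 °C had this same genotype. Ablated female 3 at 30 °C was of the Ai9 x BAC-AT1A-Cre line, Cre+ and R+/-, and is called the Ai9 female below. Among the 3 control females at 22 °C, all were Ai39 x BAC-AT1A-Cre, Cre- and Halo+/-. Of the 4 control females at 30 °C, 2 were Ai39 and Cre-, 1 was BAC-AT1A-Cre and Cre-, and 1 was Ai39, Cre+ and Halo+/-. The labels used here do not say what the controls received. The 3 ablated males at 22 °C were Ai39 and Cre+, and the 3 at 30 °C were 1 each of Ai39, Ai9 and BAC-AT1A-Cre, all Cre+. Line and temperature were therefore partly tied in the ablated groups. For this reason counts or medians over gene lists are given with and without the Ai9 female. The same holds for printed temperature fold changes of genes said below to have risen or fallen in ablated females. Differences between the sexes in single genes are given with her only. Each library was 1 adult mouse, so the spread between libraries includes that between animals.

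A mouse at ordinary room temperature is below its thermoneutral range and spends energy on heat, mainly in brown fat, and near 30 °C this demand is largely absent. AgRP neurons of the arcuate nucleus drive feeding and restrain energy expenditure. The liver takes part by making fatty acids, glucose and lipoproteins, and it secretes most plasma proteins, among them the acute phase proteins made in inflammation. The protein folding machinery of its endoplasmic reticulum (ER) scales with that secretory load.

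The 6 libraries held 32191409, 22048286 and 28257733 reads in genes at 22 °C, against 26874733, 25427112 and 29061366 at 30 °C. All 24 libraries held 21691653 to 34851108. Hepatocyte genes were abundant in all 6: albumin (Alb) was at 58936, 59061 and 62478 CPM (a gene's reads scaled to the size of its library) at 22 °C, against 56384, 70269 and 69578 CPM at 30 °C. Some markers of other tissues were at 0 reads in all 6 libraries. These were 3 of 14 for fat (Adipoq, Cidea and Plin1), 4 of 9 for pancreas (Amy2a5, Cel, Cpa1 and Prss2) and 5 of 13 for muscle (Acta1, Ckm, Myh2, Myh7 and Pvalb). The other members were not all at 0. The whole fat list summed to 1558 to 2096 CPM at 22 °C, against 888 to 1839 CPM at 30 °C. The pancreas list summed to 5.40 to 8.31 CPM, against 5.98 to 13.5 CPM, and the muscle list to 25.0 to 34.6 CPM, against 11.2 to 26.9 CPM. On a multidimensional scaling of the females, control female 3 at 22 °C and control female 1 at 30 °C stood apart, and among the ablated females the Ai9 female lay furthest out. Agtr1a itself, the gene whose regulatory DNA drives Cre, was at 72.1, 74.4 and 60.2 CPM in liver at 22 °C, against 59.6, 55.8 and 55.1 CPM at 30 °C. Its liver level says nothing of the ablation, which was made in the brain.

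Over all genes, the number called for temperature depended on the fit. With 3 mice per group, a count of 0 does not show that the difference was small. A fit of the 13 females in 4 groups with edgeR's quasi-likelihood test called 0 of 17709 genes (0%) at a Benjamini-Hochberg adjusted p under 0.05, and its lowest adjusted p was 0.105. At an unadjusted p under 0.05, 952 genes were higher at 22 °C (5.38%) and 1072 were lower (6.05%). Without the Ai9 female these shares were 2.33% and 2.07%. Counts over gene lists at an unadjusted p under 0.05 given below are to be set beside these shares. All 3 values at 22 °C lay above all 3 at 30 °C for 2030 genes (11.5%) and below them for 2052 genes (11.6%). The median log2 fold change of all genes, 22 °C over 30 °C, was 0.02, with 51.7% of genes positive.

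Other fits of the same 6 livers called more, and the difference between fits is large. A fit of the 12 ablated libraries of both sexes, in which the control females and their spread play no part, called 32 of 17465 genes higher at 22 °C (0.183%) and 42 lower (0.24%). Of these 74 genes, all 74 had 3 values on one side of the other 3, all 74 kept their sign and 6 were still called without the Ai9 female, and their highest unadjusted p in the fit of 13 females was 0.0419. The 74 were picked by their p in these same livers, so the separation, the kept signs and the low p largely follow from that choice. A fit of all 24 libraries called 10 genes, 2 higher and 8 lower, and 6 of them were among the 74. The calls rest on single livers: the fit of 12 called 9 genes without the Ai9 female (0.0487%), 2 without ablated female 3 at 22 °C, 0 without ablated female 2 at 22 °C (1923 at an unadjusted p under 0.05), 196 without ablated female 1 at 22 °C, 103 without ablated female 2 at 30 °C and 400 without ablated female 1 at 30 °C. Below, a gene is said to have risen or fallen where the fit of 12 called it, and every other gene is given by its values. The fit of 13 females, planned as the test of this comparison, called 0 of the 74 genes, with adjusted p of up to 0.422 (Insig2). Fold changes and standard errors are those of the fit of 13 females unless the fit of 12 is named.

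Genes of the acute phase, the plasma proteins that hepatocytes make in inflammation, were lower at 22 °C as a group. Of 31 tested members, 28 had a negative fold change and 19 were lower at an unadjusted p under 0.05, with 1 higher, and their median log2 fold change was -1.05 beside 0.02 for all genes. Without the Ai9 female, 8 were lower and 1 was higher and the median was -0.58. The fit of 12 called Lbp, Hp and C3, and without the Ai9 female it called Lbp of these 3. The summed level of the list was 16226, 12961 and 12462 CPM at 22 °C, against 20199, 20262 and 44208 CPM at 30 °C, so the Ai9 female stood far above both other livers at 30 °C, and the groups did not overlap.

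Lbp, which encodes the lipopolysaccharide binding protein (GRCm39, 2:158148413-158174772, plus strand), was at 45.2, 40.9 and 38.1 CPM at 22 °C, against 71.6, 91.2 and 143 CPM at 30 °C. The 3 livers at 22 °C lay close together, and all were below the lowest at 30 °C. Its log2 fold change was -1.30 ± 0.26 (SE, n = 3 each; edgeR adjusted p = 0.144), and it fell in the fit of 12 (-1.28 ± 0.19, adjusted p = 0.0197) and in that fit without the Ai9 female (-0.97, adjusted p = 0.0297). Hp, the haemoglobin scavenger haptoglobin, was at 2091, 1446 and 1650.4 CPM at 22 °C, against 2693, 3327 and 6500.2 CPM at 30 °C. Hp fell in the fit of 12 (-1.25 ± 0.26, adjusted p = 0.0457; -0.79 without the Ai9 female, adjusted p = 0.141). C3, the central complement protein, was at 2528, 2107 and 2097 CPM at 22 °C, against 3671, 3773 and 6131 CPM at 30 °C, and it fell in the fit of 12 (-0.99 ± 0.21, adjusted p = 0.0432; -0.72 without the Ai9 female, adjusted p = 0.141). For both genes the groups did not overlap, and the Ai9 female was the highest.

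The members with the widest fold changes depended most on the Ai9 female. Lcn2, an iron-binding protein of innate defence, was at 10.5, 5.98 and 11.3 CPM at 22 °C, against 25.2, 56.5 and 182 CPM at 30 °C (-3.24 with the Ai9 female and -2.14 without). Saa1 was at 20.3, 10.6 and 25.1 CPM at 22 °C, against 18.1, 50.4 and 309 CPM at 30 °C, and Saa2, the other major serum amyloid A gene, was at 16.3, 10.5 and 12.8 CPM, against 10.7, 30.2 and 189.8 CPM. Groups overlapped for both serum amyloid genes, whose log2 fold changes were -2.75 and -2.54 with the Ai9 female and -0.87 and -0.64 without her. Saa1 and Saa2 are near-identical copies, and reads between them may have been split. Orm2, an orosomucoid, was at 39.1, 29.9 and 44.8 CPM at 22 °C, against 26.8, 55.4 and 271 CPM at 30 °C (-1.63 with the Ai9 female and -0.12 without). Markers of neutrophils and platelets, of which 7 of 14 were tested, moved with these genes in the same liver when summed: 20.4, 22.2 and 26.6 CPM at 22 °C, against 17.2, 19.1 and 89.3 CPM at 30 °C, and their part in the result was not tested.

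**Figure D1:**
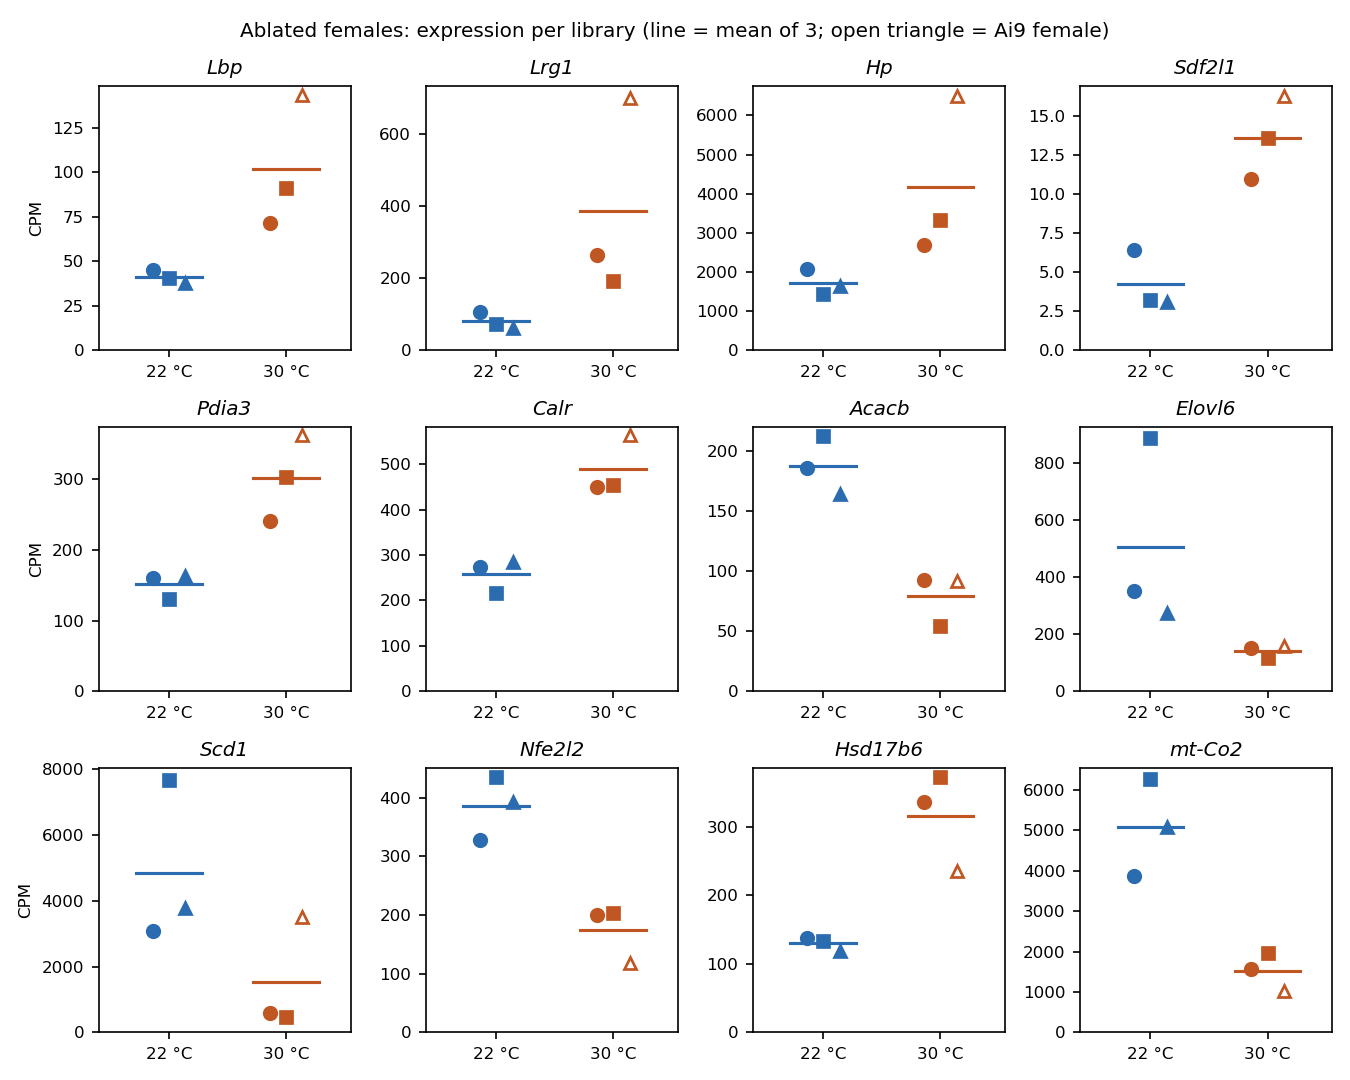
Expression of 12 genes in the 6 ablated females, in CPM on linear axes that start at 0, with 22 °C on the left and 30 °C on the right; points are libraries (circle, square and triangle for replicates 1, 2 and 3), lines are means, and the open triangle is the Ai9 female. For Lbp the values lie between 38.1 and 45.2 CPM at 22 °C and between 71.6 and 143 CPM at 30 °C, while for Scd1 the Ai9 female (3522 CPM) lies among the livers at 22 °C.

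Other secreted proteins were lower in the same livers. Lrg1, a glycoprotein of the acute response (17:56426678-56429001, minus strand), was at 106, 73.3 and 62.7 CPM at 22 °C, against 264, 192 and 701 CPM at 30 °C. Its log2 fold change was -2.26 ± 0.40 (adjusted p = 0.119), and without the Ai9 female the fit of 12 called it (-1.49, adjusted p = 0.017). Fgl1, a hepatocyte-secreted fibrinogen-like protein (8:41644471-41668193, minus strand), was at 339, 280.2 and 233 CPM at 22 °C, against 607, 653 and 1373 CPM at 30 °C, and it fell in the fit of 12 (-1.60 ± 0.30, adjusted p = 0.0432; -1.14 without the Ai9 female, adjusted p = 0.0598). The 3 livers at 22 °C were below all 3 at 30 °C for both genes, by more than the spread within 22 °C. Ahsg, the plasma protein fetuin-A, was at 3477, 2247 and 2239 CPM at 22 °C, against 5243, 4976 and 7594 CPM at 30 °C and fell in the fit of 12 (-1.14 ± 0.22, adjusted p = 0.031; -0.94 without the Ai9 female, adjusted p = 0.0745). Inhbc, a subunit of activin C made by hepatocytes, was at 30.4, 22.8 and 16.2 CPM at 22 °C, against 45.9, 43.5 and 74.5 CPM at 30 °C and also fell (-1.22 ± 0.22, adjusted p = 0.0293; -0.94 without her, adjusted p = 0.0745). Mbl1, a mannose-binding lectin of complement, was at 108, 79.4 and 81.5 CPM at 22 °C, against 155, 168 and 227 CPM at 30 °C and fell as well (-1.01 ± 0.18, adjusted p = 0.0264; -0.84 without her, adjusted p = 0.0684). Among 19 hepatokines, hormones that the liver secretes, 5 were lower at an unadjusted p under 0.05, 1 was higher, and the median was -0.26 (4, 0 and -0.33 without the Ai9 female).

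Not all hepatic defence genes were lower. Hamp2, a copy of the hepcidin gene, was at 775, 759 and 484 CPM at 22 °C, against 269, 294 and 100.4 CPM at 30 °C (1.60 ± 0.36, adjusted p = 0.211; 1.25 without the Ai9 female). Every liver at 22 °C was above every liver at 30 °C. Hamp, hepcidin itself, which lowers iron export, was at 2014, 1669 and 1632 CPM at 22 °C, against 2034, 1181 and 2725 CPM at 30 °C, so its groups overlapped. The factors that relay interleukin-6, namely Stat3 and the receptor Il6ra, were at log2 fold changes of -0.55 (adjusted p = 0.472) and -0.42 (adjusted p = 0.511), and their groups overlapped too; without the Ai9 female these were -0.0021 and -0.06.

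**Figure D2:**
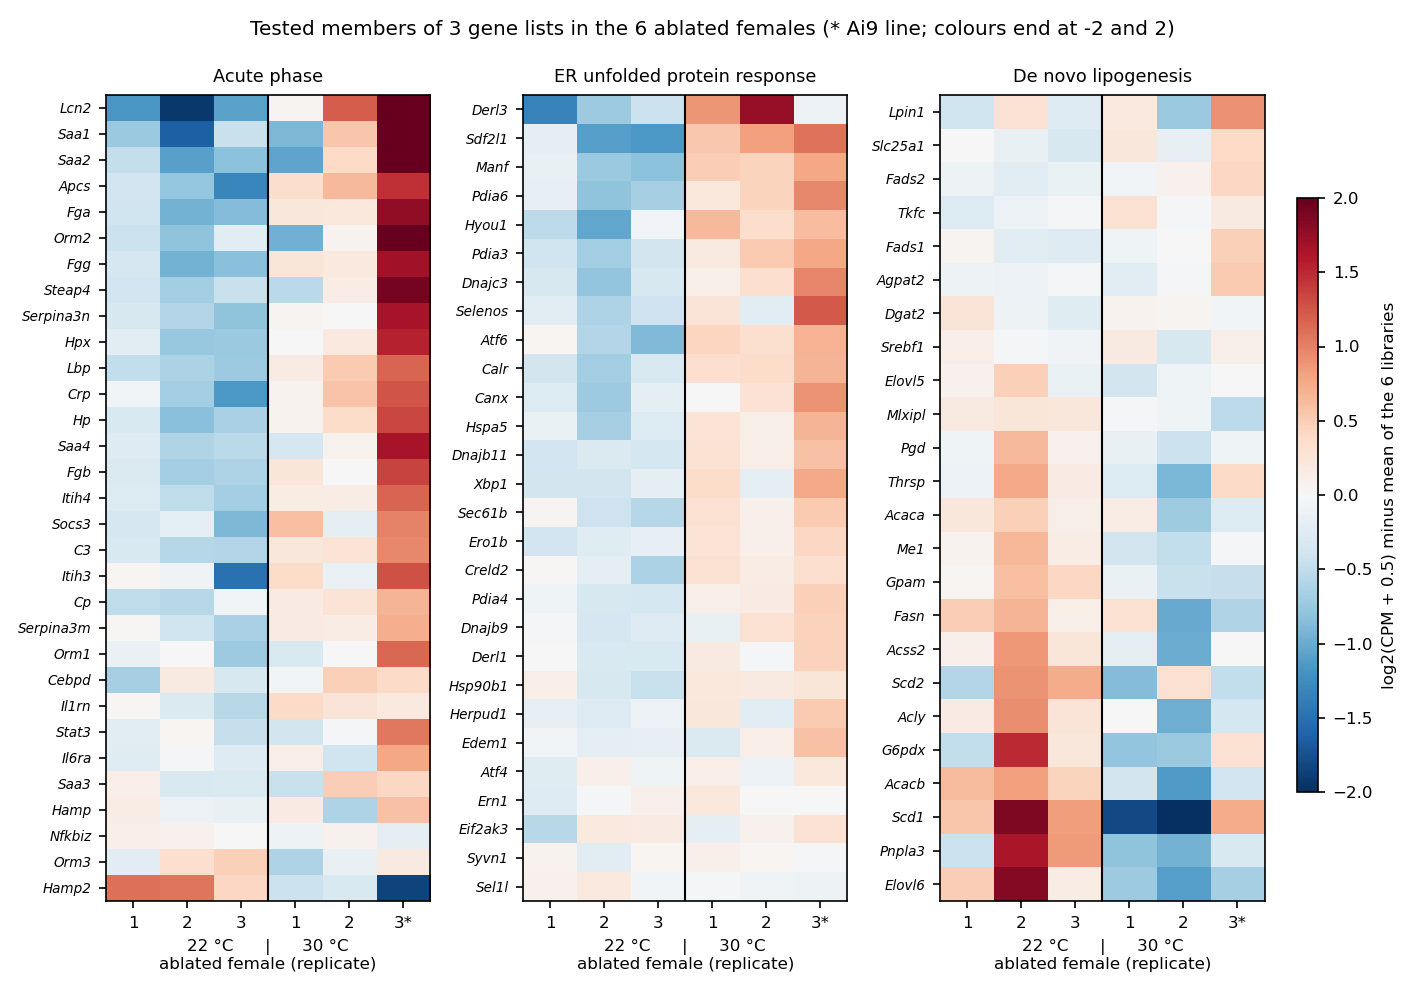
Level of each tested member of the acute phase, ER unfolded protein response and de novo lipogenesis lists in the 6 ablated females, as log2(CPM + 0.5) minus the gene's mean over the 6 libraries (blue lower, red higher), ordered by fold change; columns are libraries, 22 °C left of the line and 30 °C right of it, and the asterisk marks the Ai9 female. In the acute phase panel the Ai9 column is the reddest (Saa1 at 309 CPM), in the ER panel all 3 columns at 30 °C are red for Sdf2l1, Pdia3 and Calr, and in the lipogenesis panel ablated female 2 at 22 °C is the reddest (Elovl6 at 889 CPM).

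Chaperones and folding enzymes of the ER were lower at 22 °C, both with and without the Ai9 female. Of 28 tested members of the ER unfolded protein response list, 27 had a negative fold change, 15 were lower at an unadjusted p under 0.05 and 0 were higher. The median was -0.64, and without the Ai9 female 9 were lower, 0 were higher and the median was -0.47. The fit of 12 called 5 members lower and 0 higher, and without the Ai9 female it called 0 of them. In the fit of 13 females the adjusted p of these 5 lay between 0.310 and 0.338. In 17 of the 28 the 3 livers at 22 °C were below all 3 at 30 °C, beside 11.6% of all genes.

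The ER folds and glycosylates secreted proteins, and when unfolded protein builds up, the sensors ATF6, IRE1 and PERK raise chaperone genes. ATF6 does so through the ER stress element, CCAAT and CCACG with 9 bases between them. Promoters of 4 list members are shown because the 3 livers at 22 °C lay below all 3 at 30 °C for each of them and because 3 of them hold this element. Each run is the 250 bases before the gene's start, read 5′ to 3′ on the gene's strand from RefSeq (GRCm38.p6, an older build than that of the counts). Capitals mark the ER stress element on either strand.
Sdf2l1, chr16:17132384-17132633, minus strand: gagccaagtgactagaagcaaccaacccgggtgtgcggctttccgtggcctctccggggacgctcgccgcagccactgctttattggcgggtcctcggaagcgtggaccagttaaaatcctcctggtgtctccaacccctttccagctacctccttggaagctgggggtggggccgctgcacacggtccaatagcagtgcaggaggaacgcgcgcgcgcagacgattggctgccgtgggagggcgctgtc
Calr, chr8:84846932-84847181, minus strand: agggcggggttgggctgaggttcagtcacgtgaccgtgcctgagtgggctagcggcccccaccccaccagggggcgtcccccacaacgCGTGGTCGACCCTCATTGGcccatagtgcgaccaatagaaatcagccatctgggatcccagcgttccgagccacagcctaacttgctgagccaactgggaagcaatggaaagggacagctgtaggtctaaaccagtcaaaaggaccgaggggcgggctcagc
Pdia6, chr12:17266339-17266588, plus strand: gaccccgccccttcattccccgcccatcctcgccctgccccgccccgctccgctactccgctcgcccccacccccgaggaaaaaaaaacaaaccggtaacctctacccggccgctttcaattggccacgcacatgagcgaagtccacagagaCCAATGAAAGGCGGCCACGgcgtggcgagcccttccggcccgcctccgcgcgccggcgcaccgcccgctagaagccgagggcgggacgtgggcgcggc
Hspa5, chr2:34771840-34772089, plus strand: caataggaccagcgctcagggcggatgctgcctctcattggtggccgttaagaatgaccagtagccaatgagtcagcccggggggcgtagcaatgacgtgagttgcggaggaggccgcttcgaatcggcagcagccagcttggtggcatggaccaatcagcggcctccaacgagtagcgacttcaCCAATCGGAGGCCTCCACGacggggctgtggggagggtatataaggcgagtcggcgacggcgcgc
In the Hspa5 promoter the element starts at -65, in that of Pdia6 at -98, and in that of Calr at -162 on the reverse strand, while the letters of the element are not in the window of Sdf2l1. The element was in 20 of 11993 promoters (0.167%) searched on both strands 250 bases before to 50 after the start, and in 10 of the 24 list members with a promoter entry (41.7%). It was searched for after the values had been seen. All 10 of these list members had a negative fold change, 6 of them at an unadjusted p under 0.05, with a median of -0.78 (-0.54 without the Ai9 female). In the whole list 27 of 28 were negative and 15 were lower at that threshold. The signs of the 10 therefore largely follow from list membership and say little of the element. The 10 other genes with the element had 7 positive fold changes, of which 2 were at an unadjusted p under 0.05, Acacb and Pan2. A match describes the letters only.

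Sdf2l1, an ER chaperone component induced by unfolded protein (GRCm39, 16:16948002-16950247, minus strand), was at 6.41, 3.21 and 3.09 CPM at 22 °C, against 10.98, 13.6 and 16.2 CPM at 30 °C. The groups did not overlap, and the gene fell in the fit of 12 (-1.66 ± 0.29, adjusted p = 0.0264; -1.52 without the Ai9 female, adjusted p = 0.0684). Calr, the lectin chaperone calreticulin, was at 274, 217 and 285 CPM at 22 °C, against 449, 455 and 564 CPM at 30 °C, and fell in the fit of 12 (-0.90 ± 0.17, adjusted p = 0.0311; -0.80 without the Ai9 female, adjusted p = 0.0854). Pdia3, the disulfide isomerase that works with calreticulin, was at 159.7, 130.4 and 163 CPM at 22 °C, against 240.5, 303 and 362 CPM at 30 °C, and fell as well (-0.98 ± 0.18, adjusted p = 0.0293; -0.84 without her, adjusted p = 0.0745). For Calr and Pdia3 the gap between the groups was wider than the spread within either of them once the Ai9 female was set aside.

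The other members that fell were Pdia6 and Hyou1. Pdia6, another disulfide isomerase, was at 74.1, 47.5 and 52.0 CPM at 22 °C, against 96.6, 114 and 163 CPM at 30 °C (fit of 12: -1.08 ± 0.21, adjusted p = 0.0335; -0.85 without the Ai9 female, adjusted p = 0.106). Hyou1, a large ER chaperone of the heat shock 70 family, was at 17.04, 11.7 and 23.6 CPM at 22 °C, against 38.8, 31.5 and 38.2 CPM at 30 °C (fit of 12: -1.03 ± 0.20, adjusted p = 0.0335, and 0.0823 without her). In both genes no liver at 22 °C reached the lowest at 30 °C. Hspa5, the master ER chaperone BiP, was at 127, 87.5 and 115 CPM at 22 °C, against 169, 152 and 225 CPM at 30 °C (-0.73 ± 0.26, adjusted p = 0.343; -0.55 without her). Xbp1, the factor spliced by IRE1, was at 111, 111 and 127 CPM at 22 °C, against 185, 126 and 243 CPM at 30 °C (-0.67 ± 0.26, adjusted p = 0.368), so a liver of each group shared nearly the same level.

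Genes outside the list that serve the same secretory route fell too. These were Rpn1, a subunit of the oligosaccharyltransferase (fit of 12: -1.11 ± 0.22, adjusted p = 0.0347), Edem3, a mannosidase that marks misfolded glycoproteins (-1.11 ± 0.21, adjusted p = 0.0311), and Tmed2, a cargo carrier between ER and Golgi (-0.89 ± 0.19, adjusted p = 0.0457). Their selection followed their calls, and without the Ai9 female they were at -0.91, -0.99 and -0.68, with adjusted p of 0.107, 0.103 and 0.186. Of 18 tested genes of the integrated stress response, the branch of PERK, 0 were higher and 2 lower at an unadjusted p under 0.05 (0 and 1 without the Ai9 female). Their median was 0.04, and it was negative in other settings, at -0.08 without the Ai9 female, -0.12 with 2 control libraries left out, -0.10 in the fit of 12 and -0.11 in the fit of all 24 libraries. Its difference from the ER list was not tested. Its factors Atf4 and Ddit3 were at log2 fold changes of -0.15 (adjusted p = 0.799) and 0.43 (adjusted p = 0.591).

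Cytosolic chaperones were partly lower at 22 °C, and fewer passed the unadjusted threshold without the Ai9 female. The share of all genes that were lower fell without her as well, from 6.05% to 2.07%. Of 24 tested heat shock genes, 12 were lower at an unadjusted p under 0.05 and 0 were higher, and the median was -0.42. Without the Ai9 female, 3 were lower, 0 were higher and the median was -0.29. Ahsa1, which activates the ATPase of HSP90, was at 40.7, 28.4 and 32.3 CPM at 22 °C, against 49.2, 56.9 and 64.2 CPM at 30 °C, and it was the member that fell in the fit of 12 (-0.73 ± 0.16, adjusted p = 0.0493; -0.64 without the Ai9 female, adjusted p = 0.199). Hsp90aa1, an inducible HSP90, was at 54.4, 47.7 and 32.8 CPM at 22 °C, against 69.0, 78.6 and 86.4 CPM at 30 °C (-0.79 ± 0.23, adjusted p = 0.288). Hspb1, a small heat shock protein, was at 17.9, 13.4 and 8.39 CPM at 22 °C, against 25.9, 27.5 and 30.1 CPM at 30 °C (-1.07 ± 0.41, adjusted p = 0.371). In all 3 genes the livers at 22 °C lay below those at 30 °C. Hspa1a, the classic inducible HSP70, was close to undetected, at 0.858, 0.681 and 0.0671 CPM at 22 °C, against 0.0716, 0 and 0.0352 CPM at 30 °C.

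Ribosomal protein and proteasome genes had negative fold changes in all but 1 member of each list. Of 78 tested genes of cytosolic ribosomal proteins, 77 had a negative fold change, 29 were lower at an unadjusted p under 0.05 and 0 were higher, with a median of -0.54. Without the Ai9 female, 5 were lower and the median was -0.33. Rpl17 was at 87.9, 78.4 and 90.8 CPM at 22 °C, against 155, 128 and 143 CPM at 30 °C, and it was the member that fell in the fit of 12 (-0.71 ± 0.15, adjusted p = 0.0479; -0.72 without the Ai9 female, adjusted p = 0.103). Rpl30, which was among the 20 genes of lowest p, was at 29.7, 27.2 and 30.0 CPM at 22 °C, against 74.2, 78.1 and 177 CPM at 30 °C (-1.92 ± 0.37, adjusted p = 0.144; -1.40 without the Ai9 female, adjusted p = 0.365). The 3 livers at 22 °C lay close together and below all 3 at 30 °C. Many ribosomal protein genes have near-identical pseudogenes, so their counts are uncertain. Of 31 proteasome subunits, 30 had a negative fold change, 4 were lower at an unadjusted p under 0.05 and the median was -0.37 (-0.25 without the Ai9 female). Short genes were lower over the whole transcriptome as well, with a median log2 fold change of -0.08 over the 3544 shortest genes and 0.09 over the 3541 longest (-0.03 and 0.07 without the Ai9 female).

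Genes of fatty acid synthesis from carbohydrate, or de novo lipogenesis, were mostly higher at 22 °C, and the median of this group was as high without the Ai9 female. Of 24 tested members, 17 had a positive and 7 a negative fold change. At an unadjusted p under 0.05, 10 were higher and 0 were lower, and the median was 0.50. All 3 values at 22 °C lay above all 3 at 30 °C for 8 members and below them for 2, beside 11.5% and 11.6% of all genes. Without the Ai9 female, 11 were higher, 0 were lower and the median was 0.60. The fit of 12 called 0 of the 24. The summed level was 10572, 16796 and 10817 CPM at 22 °C, against 7435, 5917 and 10253 CPM at 30 °C, with ablated female 2 at 22 °C the highest.

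Acacb, the acetyl-CoA carboxylase whose malonyl-CoA restrains fatty acid entry into mitochondria (5:114284596-114388822, plus strand), was at 186, 213 and 164 CPM at 22 °C, against 93.0, 54.4 and 92.2 CPM at 30 °C. All livers at 22 °C were above those at 30 °C, and the log2 fold change was 1.23 ± 0.23 (adjusted p = 0.117; 0.109 in the fit of 12). Without the Ai9 female the fold change of Acacb was 1.35. Elovl6, which lengthens palmitate to stearate (3:129326004-129432144, plus strand), was at 352, 889 and 276 CPM at 22 °C, against 151, 117 and 158 CPM at 30 °C (1.83 ± 0.35, adjusted p = 0.144; 1.91 without the Ai9 female), and the fit of all 24 libraries called it higher. Scd1, the main desaturase of the liver, was at 3092, 7674 and 3774 CPM at 22 °C, against 603, 469 and 3522 CPM at 30 °C. Its spread lay in 1 liver: the log2 fold change was 1.66 ± 0.72 (adjusted p = 0.416) with the Ai9 female and 3.18 (adjusted p = 0.087) without her.

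The core enzymes were higher by less. Acly, which makes cytosolic acetyl-CoA, was at 198, 337 and 211 CPM at 22 °C, against 176, 90.0 and 139 CPM at 30 °C (0.88 ± 0.27, adjusted p = 0.31). Fasn, the fatty acid synthase, was at 1135, 1300.1 and 878 CPM at 22 °C, against 997, 402 and 531 CPM at 30 °C (0.78 ± 0.27, adjusted p = 0.338), and its groups overlapped. Gpam, which starts triglyceride synthesis, was at 152, 224 and 197 CPM at 22 °C, against 134, 108 and 107 CPM at 30 °C (0.72 ± 0.21, adjusted p = 0.302). The messages of the pathway's transcription factors were nearly level: Srebf1 was at 412, 365 and 356 CPM at 22 °C, against 424, 299.7 and 405 CPM at 30 °C (0.01 ± 0.20, adjusted p = 0.997). Mlxipl, which encodes ChREBP, was at 1156, 1208 and 1202 CPM at 22 °C, against 1006, 962 and 717 CPM at 30 °C (0.41 ± 0.23, adjusted p = 0.497), with no overlap between groups.

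Insig2, which holds the SREBP precursors in the ER, fell. It was at 34.8, 40.1 and 27.7 CPM at 22 °C, against 56.5, 77.6 and 76.4 CPM at 30 °C (fit of 12: -1.02 ± 0.20, adjusted p = 0.0321; -0.96 without the Ai9 female, adjusted p = 0.0974). The groups did not overlap. Among 26 genes of cholesterol synthesis and LDL uptake, 2 were lower at an unadjusted p under 0.05, 0 were higher, and the median was -0.21 (0, 0 and -0.16 without the Ai9 female). Over all genes 6.05% were lower and 5.38% higher. Cyp51, which demethylates lanosterol, was at 59.6, 62.9 and 64.1 CPM at 22 °C, against 128, 77.1 and 134 CPM at 30 °C and fell in the fit of 12 (-0.84 ± 0.18, adjusted p = 0.0479; -0.71 without her, adjusted p = 0.171).

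Membrane lipid and lipoprotein genes moved in both directions. Tlcd1, a membrane protein that affects phospholipid composition (11:78067537-78072735, plus strand), was at 207, 311 and 239 CPM at 22 °C, against 120.4, 99.97 and 87.0 CPM at 30 °C. It rose in the fit of 12 (1.31 ± 0.21, adjusted p = 0.0197) and in that fit without the Ai9 female (1.20, adjusted p = 0.046). Apom, the carrier of sphingosine 1-phosphate on lipoproteins (17:35347973-35351026, minus strand), was at 25.1, 25.2 and 26.8 CPM at 22 °C, against 51.6, 42.3 and 66.4 CPM at 30 °C. Apom fell in the fit of 12 with the Ai9 female (-1.04 ± 0.16, adjusted p = 0.0197) and without her (-0.86, adjusted p = 0.0351). Both genes had 3 values close together in one group and no overlap with the other. Apoa1, the main protein of HDL, was at 7764, 7144 and 5545 CPM at 22 °C, against 13627, 9866 and 13155 CPM at 30 °C (-0.84 ± 0.27, adjusted p = 0.316), and Pltp, the phospholipid transfer protein, was at 82.9, 108 and 78.6 CPM, against 36.7, 37.7 and 55.4 CPM (1.05 ± 0.24, adjusted p = 0.2). Over 24 lipoprotein genes, 6 were lower and 1 was higher at an unadjusted p under 0.05, with a median of -0.26 (-0.24 without the Ai9 female).

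Ces3a, a liver carboxylesterase of the lipid droplet, was among the genes that shared the lowest adjusted p of the fit of 13 females (0.105), as were Hsd17b6 and Gm3734. It was at 549.8, 249 and 253 CPM at 22 °C, against 932, 956 and 1598 CPM at 30 °C, and fell in the fit of 12 (-1.71 ± 0.29, adjusted p = 0.0264; -1.42 without the Ai9 female, adjusted p = 0.0684). Ces3a has a close neighbouring copy, so its reads may be shared. Trp53inp2, which takes part in autophagy, was at 52.1, 45.0 and 48.0 CPM at 22 °C, against 103, 82.8 and 150.4 CPM at 30 °C and fell in the fit of 12 with the Ai9 female (-1.19 ± 0.19, adjusted p = 0.0197) and without her (-0.93, adjusted p = 0.0351). Pck1, the gluconeogenic carboxykinase, was at 585, 601 and 664 CPM at 22 °C, against 961, 1238 and 3139 CPM at 30 °C (-1.53 ± 0.35, adjusted p = 0.187; -0.84 without the Ai9 female). No liver at 22 °C reached 30 °C levels of Pck1. G6pc, the last step of glucose output, overlapped at 177, 169 and 58.2 CPM at 22 °C, against 134, 151 and 233 CPM at 30 °C (adjusted p = 0.877).

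Genes of fatty acid oxidation and of PPARα had a median log2 fold change close to that of all genes. Of 38 tested members, 5 were higher and 0 lower at an unadjusted p under 0.05, beside 5.38% and 6.05% of all genes. The median was 0.02. Without the Ai9 female, 2 were higher, 1 was lower and the median was -0.08. Cpt1a, the gate of mitochondrial oxidation, was at 366, 359 and 287 CPM at 22 °C, against 328, 297 and 316 CPM at 30 °C (adjusted p = 0.874), and Fgf21, the hormone of fasting and cold, was at 4.26, 2.48 and 4.87 CPM, against 1.90, 2.91 and 1.69 CPM (0.84 ± 0.71, adjusted p = 0.693). Both genes overlapped between temperatures.

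Nfe2l2, which encodes the oxidative stress factor NRF2 (2:75505857-75534985, minus strand), rose. It was at 327, 435 and 393 CPM at 22 °C, against 200.2, 203 and 118 CPM at 30 °C, with no overlap. The fit of 12 called it with the Ai9 female (1.16 ± 0.19, adjusted p = 0.0264) and without her (0.94, adjusted p = 0.038), and in the fit of 13 females its adjusted p was 0.187. The list of 25 tested NRF2 targets and glutathione genes also holds Nfe2l2 itself. It included 7 higher, Nfe2l2 among them, and 2 lower at an unadjusted p under 0.05. The median was 0.02 (5, 1 and -0.05 without the Ai9 female).

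Glutathione transferases made up the other higher members named here. Gsta2 was at 29.6, 25.4 and 82.2 CPM at 22 °C, against 10.2, 15.8 and 10.7 CPM at 30 °C (1.90 ± 0.41, adjusted p = 0.187; 1.81 without the Ai9 female). Gstm3 was at 59.0, 62.0 and 186 CPM at 22 °C, against 28.7, 31.4 and 42.4 CPM at 30 °C (1.58 ± 0.53, adjusted p = 0.343), and Gstm1 was at 1999, 2256 and 3366 CPM, against 1665, 1412 and 1834 CPM (0.63 ± 0.24, adjusted p = 0.354). Ablated female 3 at 22 °C was the highest for all 3 genes, and no gene of the 3 overlapped between groups. These transferases have close paralogs, so reads may be shared among them. Gclm, the regulatory subunit of glutathione synthesis, lay the other way at 138, 125 and 146 CPM at 22 °C, against 158, 194 and 211 CPM at 30 °C (-0.46 ± 0.21, adjusted p = 0.423), and Nqo1, a classic NRF2 target, overlapped at 11.3, 8.65 and 17.6 CPM, against 9.73, 12.4 and 4.76 CPM (adjusted p = 0.621).

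Enzymes of steroid metabolism included the gene with the lowest p of all. Hsd17b6, which oxidises androstanediols and retinol (10:127826805-127843480, minus strand), was at 138, 134 and 119 CPM at 22 °C, against 336, 373 and 235 CPM at 30 °C. Its log2 fold change was -1.27 ± 0.21 (adjusted p = 0.105). Here the Ai9 female was the lowest at 30 °C, and without her the fit of females called Hsd17b6 (-1.45, adjusted p = 0.0252). In control females it was at 260 ± 23.7 CPM at 22 °C, against 457 ± 83.7 CPM at 30 °C (SD, n = 3 and 4; log2 fold change -0.81), so its direction was shared with mice that were not ablated.

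Other steroid and drug enzymes fell. Akr1c6, a hydroxysteroid dehydrogenase, was at 252, 147 and 118 CPM at 22 °C, against 358, 393 and 547 CPM at 30 °C (fit of 12: -1.31 ± 0.25, adjusted p = 0.0337; -1.12 without the Ai9 female, adjusted p = 0.126). Cyp2c23, an epoxygenase, was at 348, 277 and 279 CPM at 22 °C, against 525, 590.5 and 578 CPM at 30 °C (fit of 12: -0.89 ± 0.16, adjusted p = 0.0264; -0.88 without her, adjusted p = 0.0558). Cyp2c68 was at 237, 218 and 197 CPM at 22 °C, against 353, 387 and 432 CPM at 30 °C (fit of 12: -0.83 ± 0.17, adjusted p = 0.0457; -0.76 without her, adjusted p = 0.118). None of these genes overlapped between temperatures. Over 38 tested P450 genes of families 1 to 3, 8 were lower and 0 higher at an unadjusted p under 0.05, with a median of -0.25 (-0.32 without the Ai9 female). Many of them belong to clusters of close copies.

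Targets of growth hormone, which sets much of the sex bias of liver, were partly lower. Of 21 tested genes of the growth hormone and IGF1 axis, 7 were lower and 0 higher at an unadjusted p under 0.05, and the median was -0.30 (6 lower and -0.07 without the Ai9 female). Igf1 was at 716, 597 and 571 CPM at 22 °C, against 877, 876 and 1095 CPM at 30 °C (-0.60 ± 0.20, adjusted p = 0.327; -0.48 without the Ai9 female). Igfals, which keeps IGF1 in plasma, was at 116, 85.1 and 75.7 CPM, against 148, 179.6 and 161 CPM (-0.82 ± 0.25, adjusted p = 0.31). Socs2, a feedback target of growth hormone, was at 32.1, 35.9 and 28.7 CPM at 22 °C, against 106, 40.8 and 106 CPM at 30 °C (-1.39 ± 0.54, adjusted p = 0.381). In all 3 genes the livers at 22 °C lay below those at 30 °C. Of 28 male-biased liver genes, 8 were lower and 0 higher, with a median of -0.98, but without the Ai9 female 5 were lower and the median was -0.12. Mup20, a male-biased urinary protein with close copies, was at 41.9, 36.9 and 80.1 CPM at 22 °C, against 40.2, 57.1 and 457 CPM at 30 °C, so it was high in the Ai9 female alone. The 30 female-biased genes had a median of 0.04, with 1 higher and 2 lower (-0.15, 0 and 3 without the Ai9 female).

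Reads from the mitochondrial genome took a larger share of the libraries at 22 °C. They made up 18.3%, 27.6% and 21.9% of reads in genes at 22 °C (22.6% ± 4.68, SD, n = 3), against 14.5%, 13.9% and 7.53% at 30 °C (11.96% ± 3.85, n = 3). The groups did not overlap, and the difference was 10.6 percentage points, or 8.41 without the Ai9 female (two-sided exact permutation p = 0.1, the smallest that 3 against 3 allows). In control females the share was 13.8%, 17.9% and 37.3% at 22 °C, against 22.1%, 14.4%, 11.97% and 12.95% at 30 °C, and in ablated males it was 18.6% ± 0.804 at 22 °C, against 19.2% ± 1.26 at 30 °C (SD, n = 3 each). All 13 protein-coding mitochondrial genes had 3 higher values at 22 °C, 11 of them at an unadjusted p under 0.05, with a median log2 fold change of 1.22 (4 of them and a median of 0.96 without the Ai9 female). mt-Co2 was at 3868, 6282 and 5093 CPM at 22 °C, against 1568, 1961 and 1024 CPM at 30 °C (1.74 ± 0.56, adjusted p = 0.327). The ribosomal RNAs mt-Rnr1 (fit of 12: 1.14 ± 0.22, adjusted p = 0.0337) and mt-Rnr2 (1.09 ± 0.22, adjusted p = 0.0397) rose, and without the Ai9 female they were at 1.04 (adjusted p = 0.1) and 0.93 (adjusted p = 0.114). Nuclear genes of the respiratory chain did not share this direction: of 64, 0 were higher and 4 lower at an unadjusted p under 0.05, with a median of -0.26 (0, 0 and -0.16 without the Ai9 female). With the mitochondrial genes removed before scaling, the fit of 13 females again called 0 genes (1984 at an unadjusted p under 0.05).

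**Figure D3:**
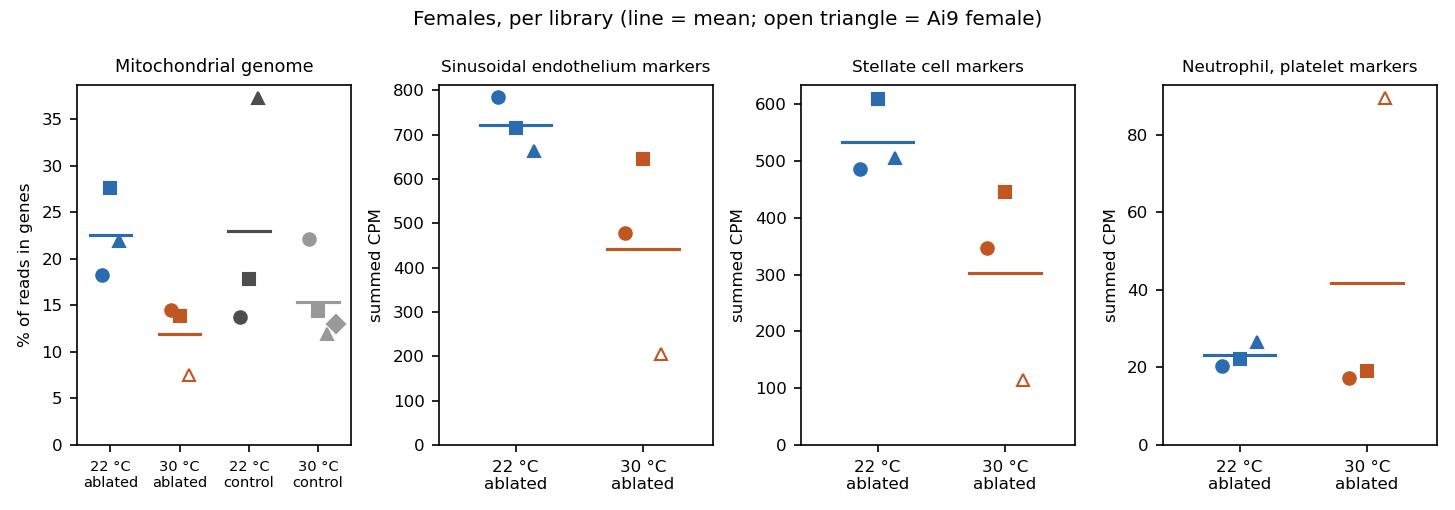
From left to right, the percentage of reads in genes that came from the mitochondrial genome in 13 females, and the summed CPM of markers of sinusoidal endothelium, stellate cells, and neutrophils with platelets in the 6 ablated females; points are libraries, lines are means, 22 °C is left of 30 °C, and the open triangle is the Ai9 female. The mitochondrial share is 18.3% to 27.6% in ablated females at 22 °C and 7.53% to 14.5% at 30 °C, and the Ai9 female is lowest for endothelium (205 CPM) and stellate cells (115 CPM) and highest for neutrophils and platelets (89.3 CPM).

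Markers of sinusoidal endothelium and of stellate cells were higher at 22 °C, most of all against the Ai9 female, while summed markers of Kupffer cells, lymphocytes, cholangiocytes, erythroid cells and neutrophils with platelets overlapped between temperatures. In bulk liver, fewer cells of a type and less RNA per cell cannot be told apart. The summed level of sinusoidal endothelium markers was 784, 716 and 663 CPM at 22 °C, against 477, 645 and 205 CPM at 30 °C. All 24 tested markers of this type had a positive fold change, 7 were higher at an unadjusted p under 0.05 and the median was 0.77 (3 higher and 0.39 without the Ai9 female). Stab1, a scavenger receptor of these cells, was at 129.7, 113 and 105 CPM at 22 °C, against 70.9, 82.8 and 33.7 CPM at 30 °C (0.89 ± 0.25, adjusted p = 0.275). Every liver at 22 °C was above every liver at 30 °C for Stab1 and for the sum. Summed stellate cell and fibroblast markers were at 486, 610 and 505 CPM at 22 °C, against 347, 445 and 115 CPM at 30 °C (median 0.80 over 25 genes, and 0.41 without the Ai9 female). Kupffer cell markers overlapped, at 556, 494 and 566 CPM at 22 °C, against 402, 592 and 382 CPM at 30 °C. Lymphocyte and MHC class II markers overlapped at 236 to 360.1 CPM at 22 °C, against 138 to 241.3 CPM at 30 °C, and so did cholangiocyte markers at 128 to 298 CPM, against 173 to 186 CPM. Erythroid markers were at 371 to 935 CPM at 22 °C, against 281 to 460.3 CPM at 30 °C. Neutrophil and platelet markers, given above, lay the other way, with the Ai9 female the highest and a median of -0.28 over 7 genes (0.29 without her).

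Collagens and other matrix genes were higher by count but not by their summed level. Of 39 tested, 12 were higher and 0 lower at an unadjusted p under 0.05, and the median was 0.83 (3 higher and 0.56 without the Ai9 female). Their sum was 2162, 2269 and 1879 CPM at 22 °C, against 2297, 2087 and 2468 CPM at 30 °C, so the groups overlapped and the Ai9 female was the highest. Col3a1, a fibrillar collagen, was at 23.9, 47.7 and 57.5 CPM at 22 °C, against 20.04, 30.6 and 11.2 CPM at 30 °C (1.06 ± 0.34, adjusted p = 0.317), with overlap. Hepatocyte markers were the counterpart: their sum was 98197, 90743 and 92211 CPM at 22 °C, against 104319, 115541 and 131296 CPM at 30 °C, and 4 of 12 were lower at an unadjusted p under 0.05 (3 without the Ai9 female). The part of cell composition in the differences of acute phase, ER and ribosomal genes was not tested. Of 38 cell cycle genes, 5 were higher and 1 lower at an unadjusted p under 0.05, beside 5.38% and 6.05% of all genes. Their median was 0.47 (4 higher, 1 lower and 0.61 without the Ai9 female). Mki67, a marker of cycling cells, was at 7.57, 7.001 and 17.9 CPM at 22 °C, against 2.15, 2.19 and 5.29 CPM at 30 °C (1.75 ± 0.65, adjusted p = 0.357; 2.32 without the Ai9 female).

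A few more genes that rose in the fit of 12 are named here after their calls were seen. Mtor, the kinase that couples nutrients to growth, was at 80.2, 78.1 and 93.6 CPM at 22 °C, against 57.2, 51.4 and 39.4 CPM at 30 °C (fit of 12: 0.78 ± 0.16, adjusted p = 0.0366; 0.64 without the Ai9 female, adjusted p = 0.138). Kmt2a, a histone H3 lysine methyltransferase, was at 75.4, 72.2 and 69.7 CPM at 22 °C, against 45.1, 45.8 and 33.6 CPM at 30 °C (fit of 12: 0.82, adjusted p = 0.0303; 0.68 without her, adjusted p = 0.103). Adra1b, the main α1 adrenergic receptor of hepatocytes, was at 190.2, 272 and 258 CPM at 22 °C, against 148, 143 and 106 CPM at 30 °C (fit of 12: 0.87, adjusted p = 0.046; 0.73 without her, adjusted p = 0.17). No liver at 30 °C reached the levels of 22 °C for any of the 3. H2-K2, a class I histocompatibility pseudogene with close copies, was at 175, 209 and 186 CPM at 22 °C, against 93.0, 80.7 and 44.3 CPM at 30 °C. It rose in the fit of 12 with the Ai9 female (1.40 ± 0.23, adjusted p = 0.0264) and without her (1.14, adjusted p = 0.0297).

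Among genes that fell, Gm3734, a long noncoding RNA with no known role given here (18:46763874-46776037, plus strand), had a very low level in 1 group. It was at 1.16, 1.75 and 0.336 CPM at 22 °C, against 22.97, 12.02 and 22.3 CPM at 30 °C (-4.18 ± 0.60; fit of 12: -4.16 ± 0.63, adjusted p = 0.036; -4.05 without the Ai9 female, adjusted p = 0.138). Control females were at 25.3 ± 3.47 CPM at 22 °C, against 37.2 ± 21.8 CPM at 30 °C (SD, n = 3 and 4), so ablated females at 22 °C had the lowest mean of the female groups. The fold change of Gm3734 differed from that in control females by -3.62 ± 0.74 and from that in ablated males by -3.95 ± 0.80. Neither difference was called. Ldha, the lactate dehydrogenase subunit of glycolysis, was at 203, 121 and 131 CPM at 22 °C, against 263, 269 and 473 CPM at 30 °C and fell (fit of 12: -1.12 ± 0.24, adjusted p = 0.0479; -0.80 without her, adjusted p = 0.15). Slc30a1, the zinc exporter, was at 13.2, 14.1 and 14.7 CPM at 22 °C, against 24.9, 21.9 and 37.3 CPM at 30 °C, and it also fell (fit of 12: -0.98, adjusted p = 0.0311; -0.73 without her, adjusted p = 0.158). Several genes named here, among them Lrg1, Ahsg, Inhbc, Pdia3, Pdia6, Acacb, Elovl6, Tlcd1, Ces3a, Cyp51, Insig2, Rpl17, Rpl30 and Mtor, overlap another listed gene, and without stated strand the reads of such pairs cannot be told apart.

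Genes known to respond to temperature itself moved little. Cirbp, the cold-inducible RNA-binding protein, was at 22.8, 22.4 and 25.9 CPM at 22 °C, against 32.0, 22.3 and 34.2 CPM at 30 °C (-0.32 ± 0.22, adjusted p = 0.595). Rbm3, the other cold-shock RNA-binding protein, was at 23.02, 20.3 and 23.9 CPM at 22 °C, against 24.8, 27.7 and 26.2 CPM at 30 °C (-0.23 ± 0.23, adjusted p = 0.755). Neither was higher in the cooler group, whose body temperature was not given. Ppargc1a, a coactivator of mitochondrial genes, was at 10.9, 15.1 and 11.9 CPM at 22 °C, against 15.8, 12.4 and 14.1 CPM at 30 °C (adjusted p = 0.857), and Per1, a clock gene, was at 58.7, 91.5 and 87.7 CPM, against 68.0, 61.6 and 89.0 CPM (adjusted p = 0.908). Both overlapped between temperatures. The 24 clock genes had a median of 0.12, with 1 higher and 1 lower at an unadjusted p under 0.05 (0.09, 1 and 1 without the Ai9 female). Of 15 thyroid hormone response genes, 4 were lower and 1 higher, with a median of -0.36 (1, 2 and -0.25 without the Ai9 female). Dio1, the deiodinase that thyroid hormone induces in liver, was at 58.9, 77.7 and 56.1 CPM at 22 °C, against 134, 121 and 181 CPM at 30 °C (-1.18 ± 0.29, adjusted p = 0.259). No liver at 22 °C reached the levels of Dio1 at 30 °C. Agt, the angiotensinogen gene, was at 920.2, 646 and 545 CPM at 22 °C, against 837, 1035 and 807 CPM at 30 °C (adjusted p = 0.581), and Cyp7a1, the rate-limiting enzyme of bile acid synthesis, was at 111, 113 and 130.4 CPM, against 128, 153 and 247 CPM (-0.58 with the Ai9 female, adjusted p = 0.445, and -0.25 without).

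**Figure D4:**
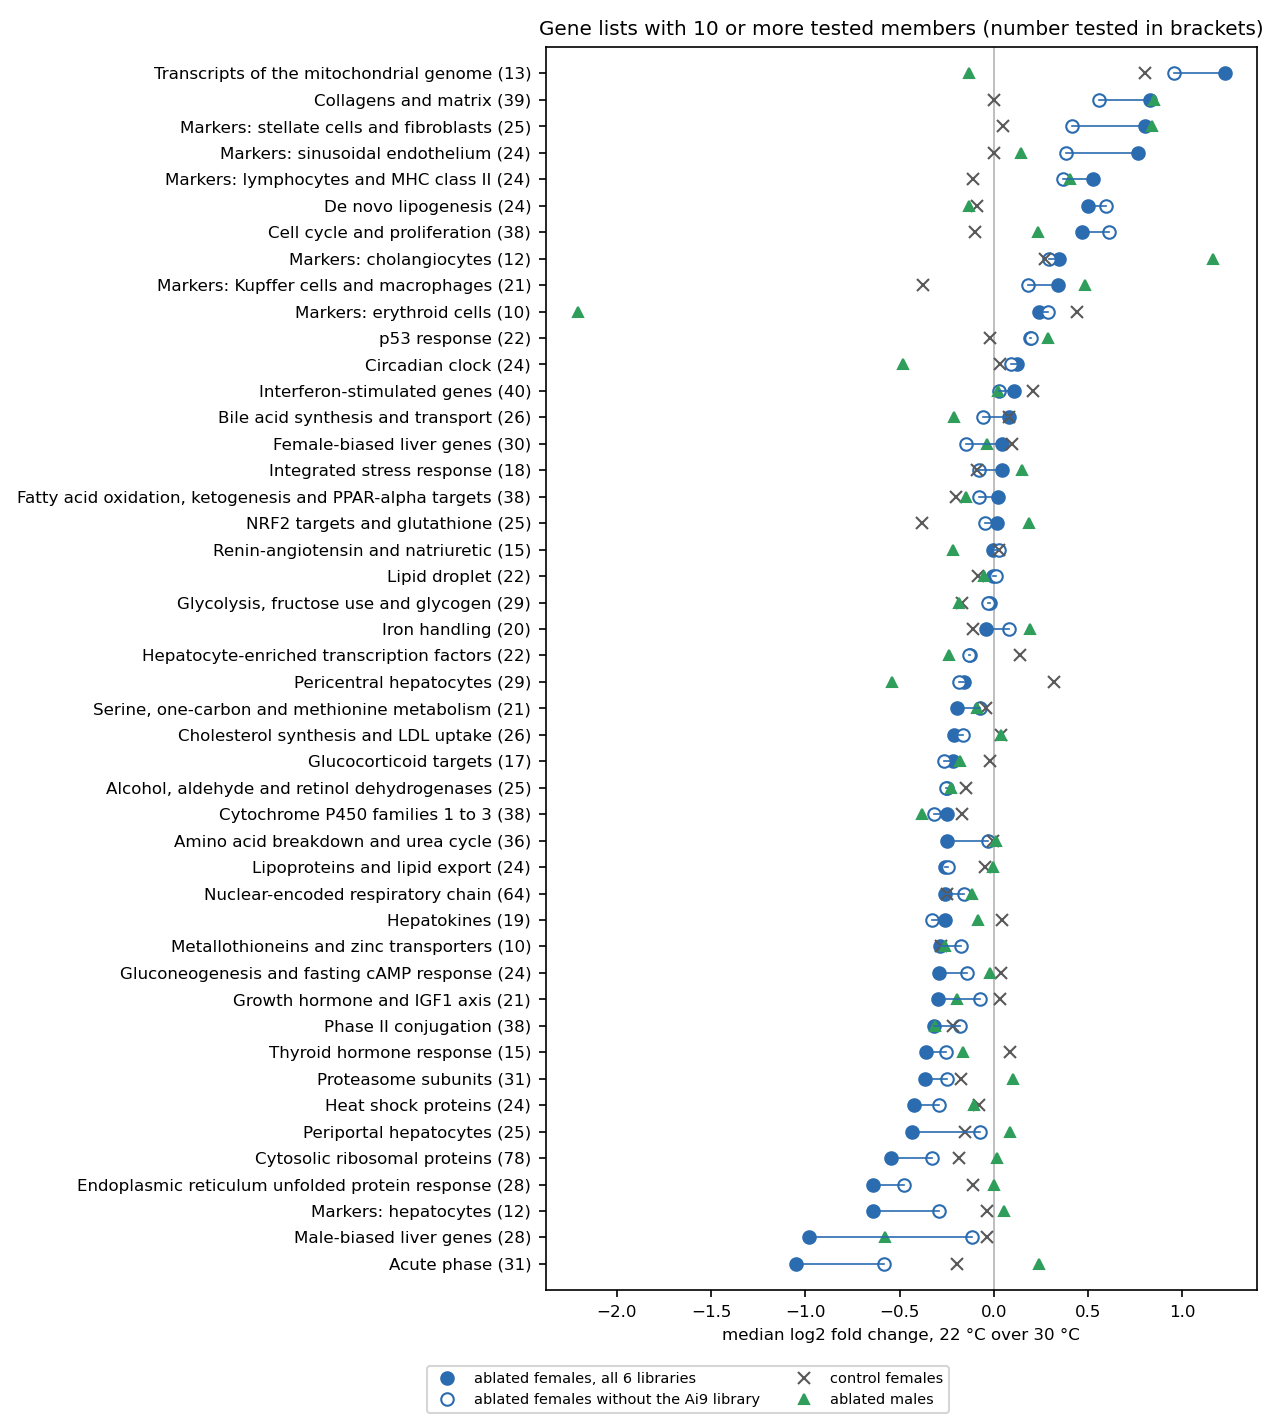
Median log2 fold change, 22 °C over 30 °C, of each gene list with 10 or more tested members, sorted by the median in ablated females; filled circles are all 6 ablated females, open circles leave out the Ai9 female, crosses are control females and triangles are ablated males. Acute phase lies lowest (-1.05, or -0.58 without the Ai9 female, with -0.20 in control females and 0.24 in ablated males) and the mitochondrial transcripts lie highest (1.22, with 0.80 in control females and -0.13 in ablated males).

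The same temperatures were compared in control females to see whether the ablated females differed from them. In control females, 0 of 17709 genes were called (0%), 1178 were at an unadjusted p under 0.05 (6.65%), and the median of all genes was -0.01. The test of the difference, ablated minus control, also called 0 of 17709 genes (0%), with 819 at an unadjusted p under 0.05 and a lowest adjusted p of 1.00. Of the 74 genes of the fit of 12, 68 had the same sign in control females, beside 61.4% of all genes. These 2 comparisons share no library. Medians in control females were -0.20 for acute phase, -0.11 for the ER list, -0.09 for lipogenesis and 0.80 for mitochondrial transcripts. The summed acute phase level ranged over 10854 to 22039.6 CPM in control females at 22 °C, against 17543 to 23475 CPM at 30 °C, a wider spread than among ablated females at 22 °C.

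Acacb and Lrg1 were among the genes of lowest p in that difference, though far from the adjusted threshold. Acacb was at 117 ± 5.14 CPM in control females at 22 °C, against 137 ± 35.1 CPM at 30 °C, which made its fold change 1.46 ± 0.32 log2 units higher in ablated than in control females (edgeR adjusted p = 1.00). Lrg1 was at 178 ± 34.2 CPM in control females at 22 °C, against 143 ± 37.9 CPM at 30 °C, a difference of -2.57 ± 0.53 (adjusted p = 1.00). Leaving out the 2 control libraries that stood apart, a choice made after seeing the data, raised the calls for temperature in ablated females to 121 (47 higher and 74 lower), among them 56 of the 74, and left the difference at 0 calls (1219 at an unadjusted p under 0.05).

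Ablated males gave a different picture, and here the difference was tested with calls. In males, 59 genes were called for temperature, 21 higher (0.12%) and 38 lower (0.218%) at 22 °C. The test of females minus males called 44 of 17465 genes (0.252%), 25 with a higher and 19 with a lower fold change in females, but 0 when ablated male 1 at 22 °C was left out (2056 at an unadjusted p under 0.05). Without the Ai9 female it called 38 of 18462 genes, 24 higher and 14 lower. Of the 74 genes called in females, 29 had the same sign in males, beside 51.9% of all genes. In this difference 13 of the 74 were called. The 74 were picked by the female fold change, which is part of the difference, so a raised share was built in.

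**Figure D5:**
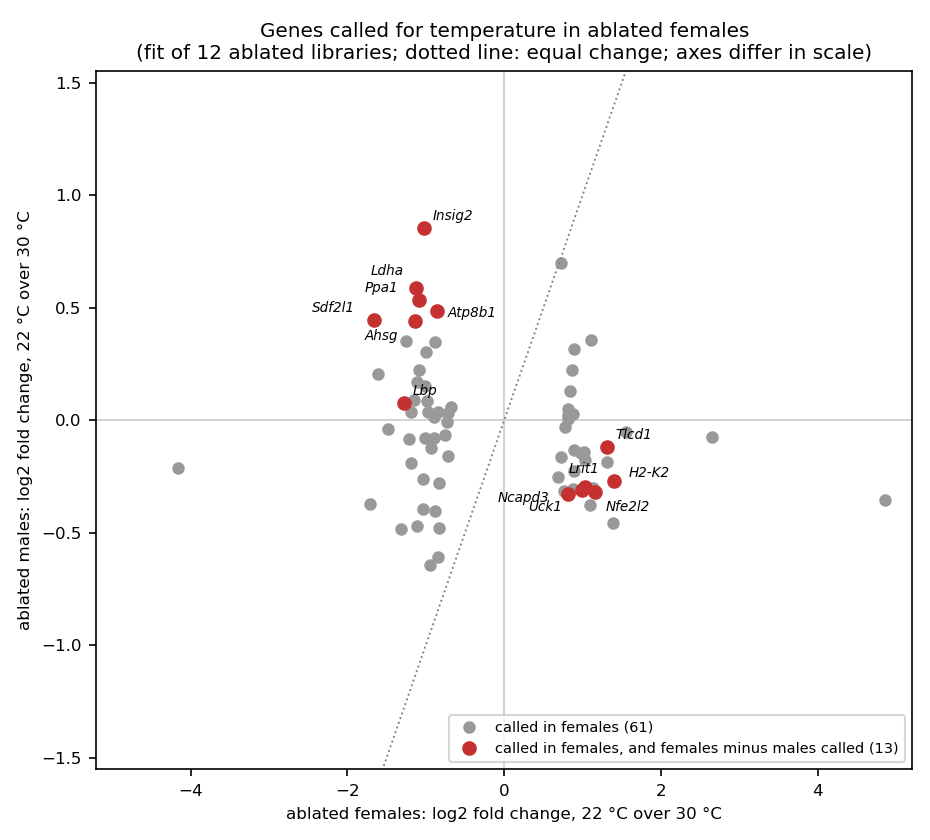
Log2 fold change, 22 °C over 30 °C, in ablated females (horizontal) and ablated males (vertical) of the 74 genes called in females by the fit of the 12 ablated libraries; red points, with names, are the 13 whose difference between the sexes was also called, and the dotted line marks equal change. The axes differ in scale, and most points lie near 0 on the male axis, with Insig2 at -1.02 in females and 0.85 in males.

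Of the 13 genes, 0 were called in males. Nfe2l2 was at 177 ± 17.6 CPM in ablated males at 22 °C, against 221 ± 7.98 CPM at 30 °C, so females exceeded males in log2 fold change by 1.48 ± 0.27 (edgeR adjusted p = 0.0293). Lbp was at 34.1 ± 3.52 CPM in males at 22 °C, against 32.4 ± 2.63 CPM at 30 °C, and the difference was -1.36 ± 0.27 (adjusted p = 0.0393). Sdf2l1 was at 13.3 ± 3.16 CPM in males at 22 °C, against 9.796 ± 1.19 CPM at 30 °C, and the difference was -2.10 ± 0.41 (adjusted p = 0.0383). In males the groups overlapped for Lbp and Sdf2l1, whereas for Nfe2l2 all 3 livers at 22 °C were below those at 30 °C, with log2 fold changes of 0.08, 0.44 and -0.32 (adjusted p = 0.952, 0.637 and 0.61). Insig2 was at 91.1 ± 11.8 CPM in males at 22 °C, against 50.4 ± 14.7 CPM at 30 °C (log2 fold change 0.85, adjusted p = 0.0712), and the difference was -1.87 ± 0.28 (adjusted p = 0.0085). Medians in males were 0.24 for acute phase, 0.00 for the ER list and -0.13 for lipogenesis, while collagens and matrix had 0.85, close to the 0.83 of females. Elovl6 was at 113 ± 23.8 CPM in males at 22 °C, against 227 ± 61.6 CPM at 30 °C, and its difference of 2.86 ± 0.56 was not called (adjusted p = 0.0771).

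Set side by side, the gene groups differed in how far they rested on the Ai9 female. The median of acute phase genes was -1.05 with her and -0.58 without, that of male-biased genes -0.98 and -0.12, and that of periportal hepatocyte genes -0.44 and -0.07. The median of the ER list was -0.64 and -0.47, and that of lipogenesis 0.50 and 0.60. In her absence the fit of 12 called 9 genes, Nfe2l2, Tlcd1, H2-K2 and mt-Co3 higher and Lbp, Apom, C8a, Lrg1 and Trp53inp2 lower, of which 6 were among the 74. C8a, a subunit of the membrane attack complex, was at 80.3, 60.2 and 40.1 CPM at 22 °C, against 166, 132 and 683 CPM at 30 °C (-2.44 with the Ai9 female and -1.31 without). With 1 mouse of that line among the ablated females, line and single animal cannot be told apart.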

How the data were processed

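Liver RNA of 24 mice was measured by sequencing of polyadenylated RNA. The authors deposited raw read counts per gene and FPKM values, per the file headers. Reads were aligned with HISAT2 to GRCm39, per the submitters' processing notes, which also name CASAVA and DESeq2. The counting program, its annotation, strandedness and tool versions were not stated in any source used. The deposited FPKM values were carried along for the named genes and not tested.

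The 3 deposited count tables were joined by gene ID into 27802 genes, and genes absent from a table were set to 0 (40326 values). Unused sample columns numbered 0. Temperature was tested with edgeR 4.0.16 (R 4.3.3), with TMM scaling, filterByExpr (minimum count 10) and robust quasi-likelihood F tests with Benjamini-Hochberg adjustment, in a fit of the 13 females in 4 groups (9 residual degrees of freedom). The difference between the sexes came from a fit of the 12 ablated libraries (8 residual degrees of freedom). Standard errors are the log2 fold change divided by the square root of F. Levels are CPM with TMM scaling, and the libraries held 21691653 to 34851108 reads in genes. The scripts were tested on simulated data. Alternatives used limma 3.58.1 (voom), DESeq2 1.42.0, other scalings, no filter on low counts, a replicate block, other sets of libraries and leaving out each library.

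The 51 gene lists and the comparison itself were chosen with earlier results of these data known. Genes were named by a rule: the 12 largest rises and falls among called genes or, with fewer than 10 called, the 20 of lowest p, the 4 of lowest p among called members of each list, a fixed set (Agtr1a, Agt, Fgf21, Igf1, Pck1, Fasn, Cyp7a1, Cirbp, Rbm3, Ppargc1a, Saa2, Orm2, Mki67, Per1), and the 4 of lowest p or largest difference each way between groups. The other genes were chosen after their values were seen. A few results of single genes are not reported here. Promoters came from RefSeq (GRCm38.p6), for 11993 tested genes. Of 5 motifs chosen at the start, described without a test, CACGTG was in 9.51% of promoters, TGACGTCA in 2.83%, TCACNCCAC in 1.22%, TGACNNNGC in 14.2% and GAANNTTC in 5.95%. Among 31 promoters of genes that fell in the fit of 12, the shares were 12.9%, 9.68%, 0%, 35.5% and 0%. Among 23 of genes that rose they were 0%, 0%, 4.35%, 17.4% and 4.35%.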

Additional observations from a re-analysis of the deposited data

Results flagged for a closer look

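Some results stand out because the temperature difference, 22 °C over 30 °C, itself differed between ablated females and ablated males in a test of that difference (edgeR's quasi-likelihood test over 17465 genes, adjusted p under 0.05, 3 mice per group). The values are log2 fold changes of females minus males, with the Ai9 female included.

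Among genes that rose in females, the difference was 1.43 for Tlcd1, 1.48 for Nfe2l2, 1.67 for H2-K2, 1.33 for Lrit1, 1.31 for Uck1 and 1.15 for Ncapd3. Among genes that fell in females, it was -1.36 for Lbp, -2.10 for Sdf2l1, -1.58 for Ahsg, -1.34 for the phospholipid flippase Atp8b1, -1.71 for Ldha, -1.63 for the pyrophosphatase Ppa1 and -1.87 for Insig2. For Hspb1 it was -1.84, with fold changes of -1.05 in females and 0.78 in males that were not called.

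For some genes the males supplied most of the difference. Gstt3, a glutathione transferase, was at 0.62 in females and fell in males (-1.17, adjusted p = 0.0207), a difference of 1.79. Lrtm1 differed by 2.36 and Snhg11 by 3.67, and both fell in males. Zap70, a kinase of T cell receptor signalling, was at -0.61 in females and rose in males (1.91, adjusted p = 0.0298), a difference of -2.52.

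Rims2 had a fitted difference of -8.03, which is no bound, since all 3 ablated males at 30 °C had 0 reads. The ablated males at 22 °C had 113 reads in all, at least 34.8-fold higher than a floor of 3 reads over the group at 30 °C. In females Rims2 was at 1.47, 2.29 and 0.705 CPM at 22 °C, against 1.00, 1.02 and 1.97 CPM at 30 °C.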

How the results depend on the processing

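The count of 0 genes called for temperature in ablated females stayed 0 with DESeq2 size factors, limma voom, mitochondrial genes removed and the 6 ablated females alone. A minimum log2 fold change of 1 can only remove calls, so a count of 0 had to stay 0 under it. It was 581 with no filter on low counts, 142 with DESeq2 without that filter, 10 with all 24 libraries, 16 with 23 of them and 74 with the 12 ablated libraries. With 2 control libraries left out it was 121. Leaving out 1 ablated library at a time gave 0 to 7 in the fit of 13 females, and leaving out 1 control, an alternative added after seeing the data, gave 0 to 6 (6 without 22 °C control female 3, 5 without 30 °C control female 1, 1 each without 30 °C control females 2 and 4). In the fit of 12 it gave 196, 0 and 2 (22 °C females 1 to 3) and 400, 103 and 9 (30 °C females 1 to 3). For ablated minus control females, 0 became 128 with no filter in edgeR and 6 with DESeq2 without the filter, and stayed 0 when single libraries were left out. For females minus males, 44 became 776 with no filter in edgeR, 453 with DESeq2 without the filter, 7 with all 24 libraries and 6 with 23, while other scalings and voom gave 44 to 50, and leaving out 1 library gave 0 to 131. The causes were not tested. Replicate numbers did not pair the livers (same-number correlations of -0.04, 0.02 and 0.004). With a replicate block the counts were 0 for ablated females, 0 for the difference from controls and 60 for the difference from males.

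Of 5826 values of 195 genes under the alternatives, 5172 kept direction and side of the threshold, 639 passed it, and 15 reversed. Rims2 (0.15) was -0.011 with voom, -0.12 with the block, -0.28 to 0.55 without single libraries and -0.28 in the fit of 12 without ablated female 2 at 22 °C. Mup20 (-1.80) ranged over -2.28 to 0.12 and Hamp (-0.16) over -0.43 to 0.14 without single libraries, and without the Ai9 female the fit of 12 gave 0.13 and 0.15. Srebf1 (0.01) ranged over -0.14 to 0.10, and was -0.083 and -0.12 in the fit of 12 without ablated female 1 at 22 °C or 2 at 30 °C, and -0.012 with 23 libraries. With 3 mice per group, the smallest exact p is 0.1, and a single liver could move a count of calls by more than the choice of normalization.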
